A study of Mus musculus with 6 samples.

Results

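Amino acid transporters of the solute carrier families Slc1, Slc3, Slc6, Slc7, Slc36, Slc38 and Slc43 were followed in mouse CD8+ T cells that had been primed with IL-12, primed with IL-2, or left naive. The genes were chosen by symbol alone: every gene of these families that the array's annotation pairs with a probe set of its own was taken, which gave 64 of 19938 genes. Of these, 62 were transporter genes and 2, Slc6a19os and Slc7a6os, were genes named for lying opposite a transporter gene, which are described apart. The cells came from the spleens of female C57BL/6 mice carrying the Pmel-1 T cell receptor transgene, whose receptor recognises the melanocyte antigen gp100, and all 3 groups shared that strain, sex and transgene. IL-12 cells and IL-2 cells had been primed with gp100 for 4 days and were collected after 6 days of growth with their cytokine; naive cells were taken fresh and sorted for CD8 and Thy1.1, so they differ from both primed groups in antigen and culture together. Each group had 2 arrays. Whether a group's 2 samples were taken from different animals or cultures is not stated in the labels, so the p-values measure only the spread between these samples, which may be technical.

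T cells that respond to antigen grow and divide fast, and they take up amino acids both as building blocks of protein and as signals that keep the kinase complex mTORC1 active at the lysosome. Some exchangers of the Slc7 family carry large neutral amino acids such as leucine only when paired with the heavy chain encoded by Slc3a2. These give out glutamine or another amino acid in return. Some Slc1 and Slc38 members carry glutamine or small neutral amino acids with sodium. Slc36 and some Slc38 members work at lysosomes, Slc43 members are facilitative carriers, and Slc6 holds sodium-coupled carriers of neutral amino acids, taurine, glycine and neurotransmitters.

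The values are log2 signals normalised by RMA, a method that puts all arrays on 1 scale; a difference of 1 is a 2-fold difference, and levels of different genes cannot be set against each other because their probes differ. A gene was tested where at least 2 arrays lay above 6.83, the median of all values. Over 11147 tested genes, Pearson's r between replicate arrays was 0.992 for IL-12, 0.994 for IL-2 and 0.986 for naive cells. The mean level of 8 CD8 T cell markers was 12.07 and 12.03 in IL-12 cells and 12.44 and 12.47 in IL-2 cells. In naive cells it was 12.37 and 12.50. Of the 8, 5 were lower and 0 higher in IL-12 than in IL-2 cells, where 11.0% of all tested genes were lower. Against naive cells 6 were lower and 0 higher in IL-12 cells, where 26.7% of all tested genes were lower. Of 3 markers of CD4 and regulatory T cells, Cd4 lay between 6.19 and 6.61 and Cd40lg between 5.22 and 5.82, below the 6.83 threshold. Foxp3 lay above it on all 6 arrays, between 6.96 and 7.42, and passed no test. The mean levels of the B cell and myeloid markers were highest in naive cells. The mean of 11 B cell markers was 7.50 and 7.57 in IL-12 cells and 6.81 and 6.83 in IL-2 cells. In naive cells it was 9.08 and 8.98. Of the 11, 8 were higher and 1 lower in IL-12 than in IL-2 cells, where 9.82% and 11.0% of all tested genes were. All 11 were lower in both primed groups than in naive cells. Of all tested genes 26.7% were lower in IL-12 and 19.9% in IL-2 than in naive cells. Of 6 markers of MHC class II presenting cells, 5 were higher and 0 lower in IL-12 than in IL-2 cells (median log2 difference 1.62). Against naive cells 5 of these 6 were lower and 0 higher in each primed group. The 8 myeloid markers averaged 6.63 and 6.65 in IL-12 cells, 6.38 and 6.23 in IL-2 cells and 8.23 and 8.47 in naive cells. In a bulk sample, fewer cells of a type and less RNA per cell cannot be told apart, and the part of other cells in the transporter differences was not tested.

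Of the 62 transporter genes 25 were bright enough to be tested, 19 of them above the threshold on all 6 arrays. In IL-12 cells 10 of the 25 differed from IL-2 cells at an adjusted limma p under 0.05, against 20.8% of all tested genes: 6 were higher (9.82% of all genes) and 4 lower (11.0%). Between IL-2 and naive cells 11 differed, where 45.7% of all genes did, 8 higher (25.8%) and 3 lower (19.9%). Between IL-12 and naive cells 18 differed, where 57.9% of all genes did, 11 higher (31.2%) and 7 lower (26.7%). With the arrays centred on their medians, the calls over all genes were 3282 higher and 1562 lower for IL-2 against naive and 4051 higher and 2279 lower for IL-12 against naive, and those of the transporters 8 and 2, and 12 and 6. The 25 passed a filter on brightness and some passed it through the group in which they were high, so these counts describe the bright genes only. With no filter, 11 of all 62 differed between IL-12 and IL-2 cells (11.0% of 19938 genes), 13 between IL-2 and naive cells (26.4%) and 21 between IL-12 and naive cells (35.1%). The median log2 difference of the 25 was 0.02 for IL-12 minus IL-2, 0.14 for IL-2 minus naive and 0.13 for IL-12 minus naive, beside 0.02, 0.01 and 0.04 over all tested genes. The 3 comparisons share arrays. The count for IL-12 against IL-2 was 7 without the first IL-2 array, 4 without the second, 5 without the first IL-12 array and 6 without the second, and 14 without either naive array. For IL-2 against naive it was 6 without the first IL-2 array.

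**Figure D1:**
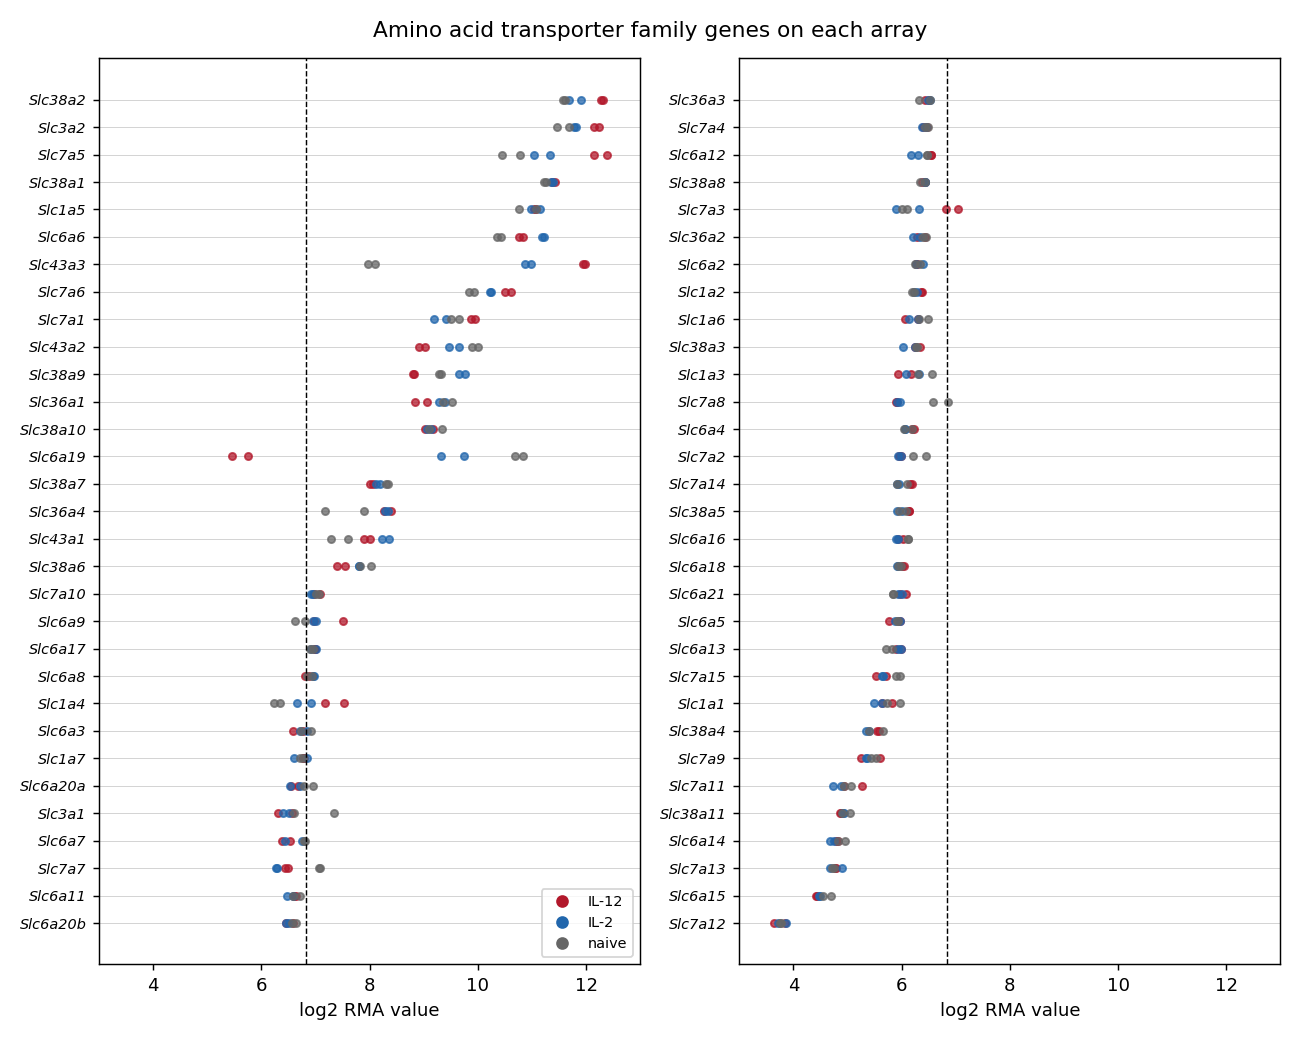
Log2 signal of the 62 transporter genes on each of the 6 arrays, coloured by group, with a dashed line at 6.83, the brightness needed on 2 arrays for a test. 25 genes were tested, and in Slc43a3 and Slc6a19 the 3 groups stand widest apart.

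The leucine exchanger stood highest in IL-12 cells. Slc7a5, which encodes the light chain LAT1 that carries leucine and other large neutral amino acids, had levels of 12.39 and 12.15 in IL-12 cells, 11.34 and 11.04 in IL-2 cells, and 10.45 and 10.78 in naive cells. The 3 groups did not overlap. IL-12 cells exceeded IL-2 cells by 1.08 ± 0.15 (log2, SE, n = 2 arrays per group), a fold of 2.11 with a limma adjusted p of 0.00193, and naive cells by 1.65 ± 0.15 (3.15-fold, limma adjusted p = 2.94e-05). IL-2 cells exceeded naive cells by 0.57 ± 0.15 (limma adjusted p = 0.0148), a call that was lost without the first IL-2 array (adjusted p = 0.129) and without the first naive array (0.0757).

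Slc3a2, the CD98 heavy chain that brings LAT1 to the cell surface, followed the same order by smaller steps. Its levels were 12.23 and 12.15 in IL-12 cells, 11.81 and 11.78 in IL-2 cells, and 11.47 and 11.69 in naive cells. The rise in IL-12 over IL-2 cells was 0.40 ± 0.11 (1.32-fold, limma adjusted p = 0.0369), and over naive cells 0.61 ± 0.11 (1.53-fold, limma adjusted p = 0.00147). The first of these calls was lost without any 1 of the 4 primed arrays (adjusted p between 0.125 and 0.204) and with quantile normalisation (0.0591) or median centring (0.0612). IL-2 minus naive was 0.22, with a 95% interval of -0.04 to 0.47, and did not pass.

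Other light chains that pair with the same heavy chain went different ways. Slc7a6 encodes y+LAT2, which gives out arginine in exchange for glutamine or leucine and sodium. It was at 10.51 and 10.62 in IL-12 cells, 10.23 and 10.24 in IL-2 cells and 9.84 and 9.93 in naive cells, again without overlap. It rose over naive cells by 0.68 ± 0.10 in IL-12 cells (1.60-fold, limma adjusted p = 0.000512) and by 0.35 ± 0.10 in IL-2 cells (1.28-fold, limma adjusted p = 0.0217), the second lost without either IL-2 array (adjusted p = 0.109 and 0.113) and without the first naive array (0.0521). IL-12 minus IL-2 was 0.33 ± 0.10 and lay just outside the threshold (limma adjusted p = 0.0518). It passed with only those 2 groups compared (0.0252). Slc7a7, the light chain y+LAT1 of similar substrate range, had 6.44 and 6.49 in IL-12 cells, 6.30 and 6.27 in IL-2 cells and 7.09 and 7.06 in naive cells. Only the naive arrays lay above the brightness threshold. Against naive cells Slc7a7 fell by 0.61 ± 0.10 in IL-12 cells (1.52-fold, limma adjusted p = 0.000748) and fell by 0.79 ± 0.10 in IL-2 cells (1.73-fold, limma adjusted p = 0.000267). Slc7a8, encoding LAT2, a second leucine exchanger, was too dim for the test, at 5.89 and 5.91 in IL-12 cells, 5.91 and 5.97 in IL-2 cells and 6.86 and 6.57 in naive cells. In the fit without the brightness filter its IL-12 minus naive was -0.82 (limma adjusted p = 0.000458) and IL-2 minus naive -0.78 (0.00098). IL-12 minus IL-2 was -0.04 in that fit (0.884). Most myeloid markers were also lower in the primed cells. Against naive cells 6 of the 8 were lower and 1 higher in IL-12 cells, and 7 of the 8 lower and 0 higher in IL-2 cells, where 26.7% and 19.9% of all tested genes were lower. Lyz2, the lysozyme of myeloid cells, was at 5.84 and 5.64 in IL-12 cells, 5.65 and 5.20 in IL-2 cells and 9.31 and 9.35 in naive cells. Itgam, an integrin chain on the same list, went the other way, with 7.41 and 7.63 in IL-12 cells, 6.55 and 6.59 in IL-2 cells and 6.19 and 6.44 in naive cells. Their part in the Slc7a7 and Slc7a8 values was not tested. Slc7a11, the cystine and glutamate exchanger xCT, stayed dim in all groups, at 5.26 and 4.93 in IL-12 cells, 4.88 and 4.73 in IL-2 cells and 5.06 and 4.93 in naive cells.

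**Figure D2:**
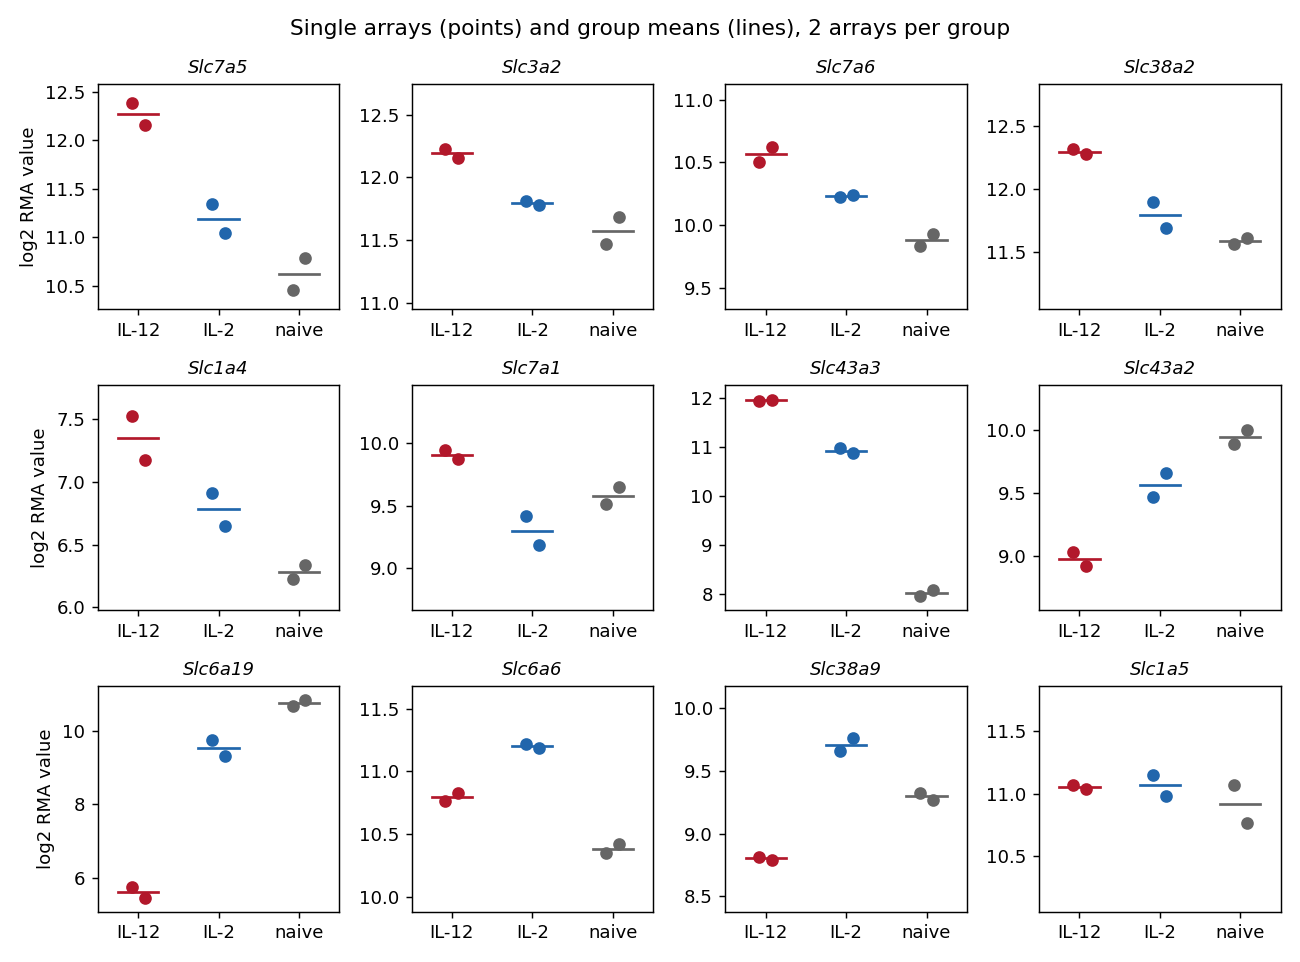
Log2 signal of 12 transporter genes in IL-12, IL-2 and naive cells; each point is 1 array and each line a group mean. Slc7a5 has both IL-12 arrays above both IL-2 arrays and these above both naive arrays, Slc6a19 has the opposite order, and in Slc1a5 the groups overlap.

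Among the glutamine and small neutral amino acid carriers, Slc38a2 and Slc1a4 were higher in IL-12 cells, and Slc1a5 and Slc38a1 passed no test. Slc38a2 encodes SNAT2, a sodium-coupled carrier known for its induction when amino acids are scarce. Its levels were 12.32 and 12.28 in IL-12 cells, 11.90 and 11.69 in IL-2 cells, and 11.56 and 11.61 in naive cells. IL-12 cells exceeded IL-2 cells by 0.51 ± 0.11 (1.42-fold, limma adjusted p = 0.0134) and naive cells by 0.71 ± 0.11 (1.64-fold, limma adjusted p = 0.000587). Without the second IL-2 array the first of these calls was lost (adjusted p = 0.143), as it was without either IL-12 array (0.0795 and 0.0709). IL-2 minus naive was 0.21 (95% interval -0.04 to 0.46).

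Slc1a4, the exchanger ASCT1 for alanine, serine, cysteine and threonine, had 7.53 and 7.17 in IL-12 cells, 6.91 and 6.65 in IL-2 cells, and 6.22 and 6.34 in naive cells. No 2 groups overlapped. It rose by 0.57 ± 0.15 in IL-12 over IL-2 cells (1.48-fold, limma adjusted p = 0.0259), by 0.50 ± 0.15 in IL-2 over naive cells (1.42-fold, limma adjusted p = 0.0211) and by 1.07 ± 0.15 in IL-12 over naive cells (2.10-fold, limma adjusted p = 0.000283). The first call was lost without the first IL-12 array (adjusted p = 0.164) and without either IL-2 array (0.0549 and 0.206), the second without the first IL-2 array (0.168) or the first naive array (0.0811).

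Slc1a5, encoding ASCT2, a glutamine carrier of activated T cells, was at 11.07 and 11.04 in IL-12 cells, 11.15 and 10.98 in IL-2 cells, and 11.07 and 10.77 in naive cells. The groups overlapped in each pair. IL-12 minus IL-2 was -0.01 (95% interval -0.31 to 0.28), IL-2 minus naive 0.15 (-0.15 to 0.44) and IL-12 minus naive 0.13 (-0.16 to 0.43), and the limma adjusted p was between 0.383 and 0.951. Slc38a1, the sodium-coupled glutamine carrier SNAT1, had 11.37 and 11.42 in IL-12 cells, 11.36 and 11.39 in IL-2 cells, and 11.25 and 11.21 in naive cells. The largest of its differences was 0.16 for IL-12 minus naive (95% interval -0.06 to 0.39, limma adjusted p = 0.184), and its other, dimmer probe set passed no test either.

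The sequence before the start site is shown for 3 genes that were higher in IL-12 than in IL-2 cells and, for contrast, for Slc6a19, which had the largest fall. Each is the 250 bases before the gene's start from RefSeq on assembly GRCm38.p6, in the direction of transcription, 5′ to 3′, and capitals mark the GC box GGGCGG or, where it lies on the other strand, CCGCCC. All 4 lie on the minus strand: Slc1a4 at chr11:20332714-20332963, Slc38a2 at chr15:96699729-96699978, Slc3a2 at chr19:8713898-8714147 and Slc6a19 at chr13:73692637-73692886.
Slc1a4: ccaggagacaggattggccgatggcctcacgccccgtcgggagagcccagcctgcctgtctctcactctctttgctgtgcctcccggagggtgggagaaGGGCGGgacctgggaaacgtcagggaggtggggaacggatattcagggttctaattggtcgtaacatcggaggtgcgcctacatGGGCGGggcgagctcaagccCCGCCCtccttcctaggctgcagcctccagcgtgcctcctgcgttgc
Slc38a2: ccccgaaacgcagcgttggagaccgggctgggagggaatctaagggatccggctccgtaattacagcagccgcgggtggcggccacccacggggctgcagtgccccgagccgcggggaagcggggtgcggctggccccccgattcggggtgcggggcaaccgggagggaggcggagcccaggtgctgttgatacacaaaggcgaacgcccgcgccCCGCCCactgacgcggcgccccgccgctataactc
Slc3a2: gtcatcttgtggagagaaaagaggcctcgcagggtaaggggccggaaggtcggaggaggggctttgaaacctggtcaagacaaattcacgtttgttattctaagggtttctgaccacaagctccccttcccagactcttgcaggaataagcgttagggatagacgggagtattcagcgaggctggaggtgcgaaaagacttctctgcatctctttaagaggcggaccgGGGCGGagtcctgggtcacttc
Slc6a19: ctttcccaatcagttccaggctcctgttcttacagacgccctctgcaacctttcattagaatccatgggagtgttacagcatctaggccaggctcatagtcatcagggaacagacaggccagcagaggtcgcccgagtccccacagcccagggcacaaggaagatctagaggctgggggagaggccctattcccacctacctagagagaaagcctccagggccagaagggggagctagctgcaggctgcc

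Of these windows 64.8% of the bases were G or C for Slc1a4, 72% for Slc38a2, 53.6% for Slc3a2 and 57.6% for Slc6a19. Slc1a4 held the GC box at 151, 67 and 47 bases before the start, Slc38a2 at 35 and Slc3a2 at 22, and Slc6a19 held none. Windows were at hand for 45 of the 62 transporter genes and 19 of the 25 tested, not for Slc7a5 or Slc43a3. On either strand the GC box was in 28 of the 45 and in 32.7% of 32851 such windows, the C/EBP-ATF response element TGATGNAA in 3 of 45 and 3.45%, the E-box CACGTG in 9 of 45 and 6.02%, and the STAT motif TTCNNNGAA in 4 of 45 and 7.02%. The 32851 windows were not limited to genes on the array or to tested genes. They were counted as windows and the 45 as genes, so the 2 shares come from unlike sets. Among the 19 tested genes with a window, 14 held a GC box, 2 a STAT motif, 1 the response element and 4 an E-box. Of the 4 genes with a window that rose in IL-12 over IL-2 cells, Slc1a4, Slc38a2, Slc3a2 and Slc7a1, all 4 held a GC box. Of these 4, 1 held a STAT motif (Slc7a1), 0 the response element and 0 an E-box. Of the 3 that fell, Slc38a9, Slc43a2 and Slc6a19, 2 held a GC box, 1 a STAT motif (Slc38a9), 0 the response element and 0 an E-box. A match is a run of letters in this window and was not tested as a site.

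Slc7a1, the cationic amino acid transporter CAT1 that brings in arginine and lysine, separated the primed groups. It had 9.94 and 9.87 in IL-12 cells, 9.42 and 9.18 in IL-2 cells, and 9.51 and 9.65 in naive cells. Both IL-12 arrays lay above both naive arrays, and both IL-2 arrays lay below them. IL-12 cells exceeded IL-2 cells by 0.61 ± 0.12 (1.52-fold, limma adjusted p = 0.00813), a call lost without the second IL-2 array (adjusted p = 0.0989) or the first IL-12 array (0.0574). The rise of 0.33 ± 0.12 in IL-12 over naive cells (limma adjusted p = 0.0385) was lost without any 1 array but the second naive one (adjusted p between 0.0501 and 0.165), with quantile normalisation (0.085) and with no brightness filter (0.0518). IL-2 minus naive was -0.28 and did not pass (limma adjusted p = 0.0837). The related Slc7a3, encoding CAT3, lay just outside the brightness filter, with 7.03 and 6.83 in IL-12 cells, 6.33 and 5.89 in IL-2 cells, and 6.09 and 6.00 in naive cells. Both of its IL-12 arrays were above all others, and in the fit without the filter IL-12 minus IL-2 was 0.82 (limma adjusted p = 0.0077). Slc7a2, encoding CAT2, was dim throughout, at 5.96 and 5.99 in IL-12 cells, 5.93 and 5.99 in IL-2 cells, and 6.20 and 6.45 in naive cells. Without the filter Slc7a2 was called against naive cells, at -0.35 for IL-12 (limma adjusted p = 0.0362) and -0.37 for IL-2 (0.0390). Its IL-12 minus IL-2 was 0.01 (0.959).

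All 3 members of the Slc43 family changed, each with its own order. Slc43a3, known in human as a carrier of purine nucleobases rather than of amino acids, had 11.95 and 11.97 in IL-12 cells, 10.98 and 10.88 in IL-2 cells, and 7.97 and 8.10 in naive cells. The groups stood far apart. It rose by 1.03 ± 0.10 in IL-12 over IL-2 cells (2.05-fold, limma adjusted p = 0.000297), by 2.89 ± 0.10 in IL-2 over naive cells (7.42-fold, limma adjusted p = 1.27e-07) and by 3.93 ± 0.10 in IL-12 over naive cells (15.2-fold, limma adjusted p = 4.02e-08). All 3 calls held without any 1 array. Among the 11147 tested genes, its rise ranked 71st for IL-12 over naive cells.

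Slc43a2, the branched-chain amino acid carrier LAT4, ran the other way, with 9.03 and 8.92 in IL-12 cells, 9.47 and 9.66 in IL-2 cells, and 9.89 and 10.01 in naive cells. It fell by 0.59 ± 0.11 in IL-12 against IL-2 cells (limma adjusted p = 0.00765) and by 0.97 ± 0.11 in IL-12 against naive cells (limma adjusted p = 0.000108). In IL-2 against naive cells it fell by 0.38 ± 0.11 (limma adjusted p = 0.0223), a call lost with each array centred on its median (adjusted p = 0.103), without the first IL-2 array (0.181) and without the second naive array (0.0565). The first call was lost without the second IL-2 array (0.0957) or the second IL-12 array (0.0667). Slc43a1, the related carrier LAT3, peaked in IL-2 cells, with 8.0 and 7.90 in IL-12 cells, 8.22 and 8.37 in IL-2 cells, and 7.28 and 7.60 in naive cells. It rose over naive cells by 0.51 ± 0.13 in IL-12 cells (1.43-fold, limma adjusted p = 0.00889, lost without the first IL-12 array at 0.058) and by 0.85 ± 0.13 in IL-2 cells (1.81-fold, limma adjusted p = 0.000902). IL-12 minus IL-2 was -0.34 ± 0.13 and did not pass (limma adjusted p = 0.0976), but passed with only those 2 groups compared (0.0296).

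Slc6a19 encodes B0AT1, the sodium-coupled neutral amino acid carrier best known from the brush border of gut and kidney, and it had the largest difference of the 25. Its levels were 5.76 and 5.45 in IL-12 cells, 9.74 and 9.32 in IL-2 cells, and 10.68 and 10.84 in naive cells. In IL-12 against IL-2 cells it fell by 3.92 ± 0.16, or 15.2-fold (limma adjusted p = 6.26e-06). In IL-12 against naive cells it fell by 5.15 ± 0.16, or 35.6-fold (limma adjusted p = 4.78e-08). In IL-2 against naive cells it fell by 1.23 ± 0.16, or 2.35-fold (limma adjusted p = 0.000402). These falls ranked 3rd, 4th and 270th among the 11147 genes, and all 3 calls held without any 1 array. The IL-12 arrays lay within the range of the 37 transporter genes too dim to test, 3.64 to 7.34. They lay above the 3.29 to 5.0 of 3 Y-linked genes, which female cells lack. Levels of different genes cannot be set against each other, so neither range shows whether the IL-12 signal was above background. The folds and ranks against IL-12 cells may be understated. Of the 11 B cell markers, 8 were higher and 1 lower in IL-12 than in IL-2 cells, where 9.82% and 11.0% of all tested genes were. The part of B cells in the Slc6a19 values was not tested.

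Slc6a6, the taurine carrier TauT, peaked in IL-2 cells, with 10.77 and 10.82 in IL-12 cells, 11.22 and 11.19 in IL-2 cells, and 10.35 and 10.42 in naive cells. It rose over naive cells by 0.41 ± 0.10 in IL-12 cells (1.33-fold, limma adjusted p = 0.00641) and by 0.82 ± 0.10 in IL-2 cells (1.76-fold, limma adjusted p = 0.000235). In IL-12 against IL-2 cells it fell by 0.40 ± 0.10 (1.32-fold, limma adjusted p = 0.0217). This call was lost without any 1 of the 4 primed arrays (adjusted p between 0.0965 and 0.142) and after median centring of the arrays (0.0512). The call of IL-12 against naive cells was lost without the second IL-12 array (0.0507). Slc6a9, the glycine carrier GlyT1, had 7.51 and 6.97 in IL-12 cells, 7.01 and 6.95 in IL-2 cells, and 6.81 and 6.61 in naive cells. Its IL-12 arrays lay 0.54 apart, the widest gap of that group. It rose in IL-12 over naive cells by 0.53 ± 0.17 (limma adjusted p = 0.0246), but not without the first IL-12 array (adjusted p = 0.188) or the second naive array (0.103). Slc6a8, the creatine carrier, Slc6a17, a vesicular carrier of neurons, and Slc6a3, the dopamine carrier, lay between 6.58 and 7.0 on all arrays and passed no test. Slc6a3 passed the brightness filter on only 2 arrays, as did Slc7a7.

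**Figure D3:**
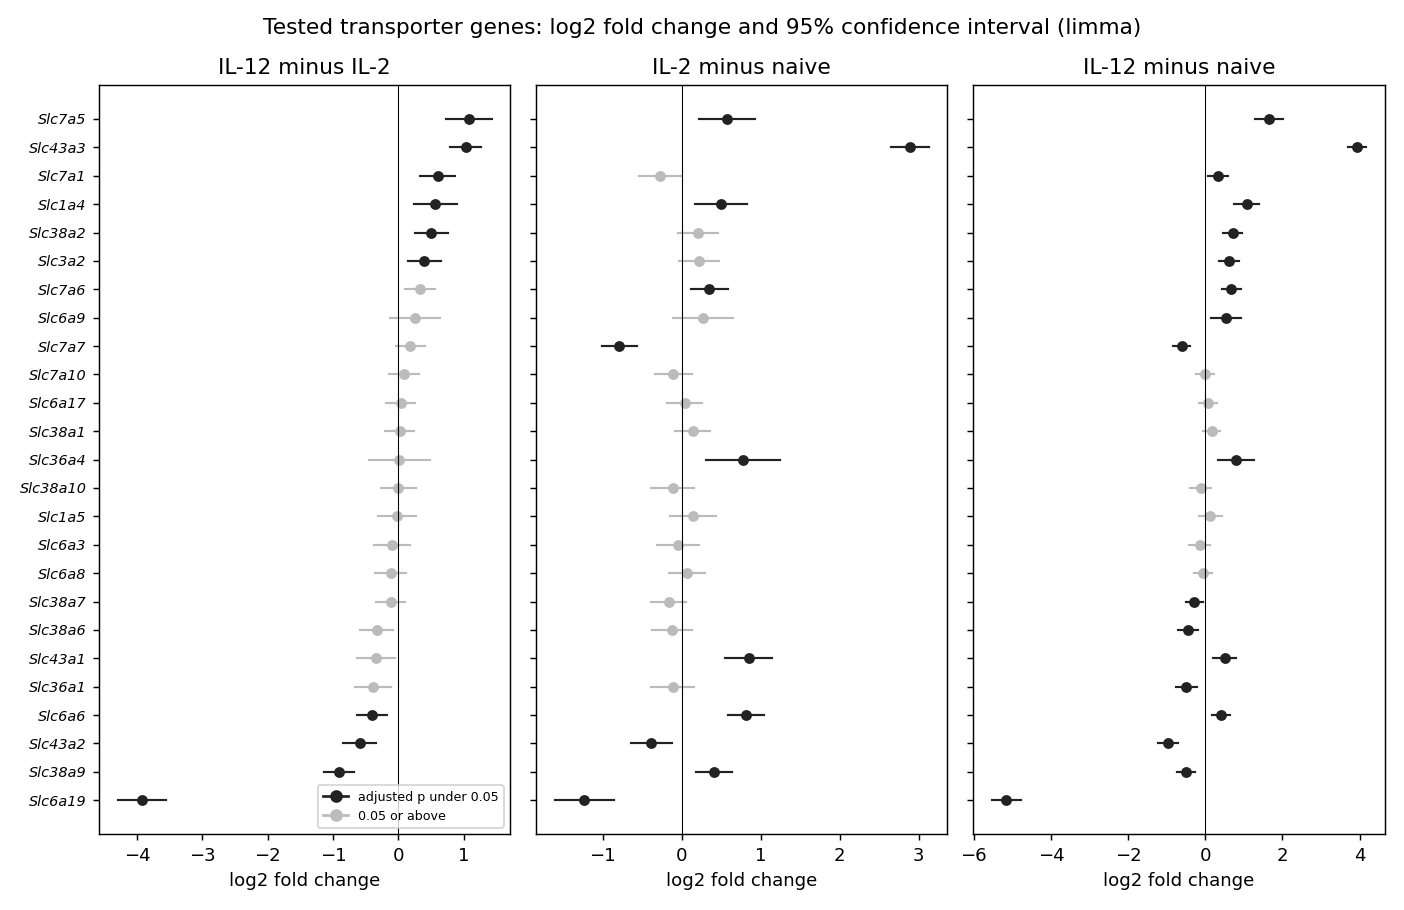
Log2 difference of each of the 25 tested transporter genes in 3 panels, IL-12 minus IL-2, IL-2 minus naive and IL-12 minus naive, with bars for the 95% interval; dark points have a limma adjusted p under 0.05. In the IL-12 minus IL-2 panel 6 dark points lie to the right of 0 and 4 to the left, with Slc6a19 at -3.92.

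Of carriers that work at lysosomes, Slc38a9, Slc36a1 and Slc38a7 were lower in IL-12 than in naive cells. Slc38a9, which reports arginine in the lysosome to mTORC1, had 8.82 and 8.79 in IL-12 cells, 9.66 and 9.76 in IL-2 cells, and 9.32 and 9.27 in naive cells. The IL-12 arrays lay below the naive ones and the IL-2 arrays above them. In IL-12 cells it fell by 0.90 ± 0.10 against IL-2 cells (1.87-fold, limma adjusted p = 0.000519) and fell by 0.49 ± 0.10 against naive cells (1.41-fold, limma adjusted p = 0.00281). In IL-2 cells it rose by 0.41 ± 0.10 over naive cells (1.33-fold, limma adjusted p = 0.00949), a call lost without the second IL-2 array (adjusted p = 0.0899). The second, dimmer probe set of Slc38a9 gave another order: 6.92 and 6.76 in IL-12 cells, 7.21 and 7.02 in IL-2 cells, and 7.41 and 7.32 in naive cells. On it IL-12 minus IL-2 was -0.28 and did not pass (limma adjusted p = 0.126), IL-12 minus naive was -0.53 (0.00411), and IL-2 minus naive had the opposite sign, at -0.25 (0.110). Both probe sets passed only for IL-12 against naive cells.

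Slc36a1, the proton-coupled carrier PAT1 of small amino acids, had 8.84 and 9.06 in IL-12 cells, 9.28 and 9.39 in IL-2 cells, and 9.53 and 9.36 in naive cells. It fell by 0.50 ± 0.12 in IL-12 against naive cells (limma adjusted p = 0.00652, lost without the first IL-12 array at 0.062), and IL-12 minus IL-2, at -0.39 ± 0.12, lay just outside the threshold (limma adjusted p = 0.0507). Slc38a7, a lysosomal glutamine exporter, and Slc38a6 each had both IL-12 arrays below both IL-2 arrays and both of these below both naive arrays. In IL-12 against naive cells Slc38a7 fell by 0.28 ± 0.10 (limma adjusted p = 0.0357), a call lost with the replicate number as a block (adjusted p = 0.0509), with quantile normalisation (0.109), with median centring (0.247), with only those 2 groups (0.0700), and without any 1 array but the first naive one (0.0540 to 0.157). Slc38a6 fell by 0.45 ± 0.11 (limma adjusted p = 0.00789), a call lost without the second IL-12 array (0.0675). Slc36a4, a carrier of proline and tryptophan, rose instead, with 8.26 and 8.40 in IL-12 cells, 8.34 and 8.28 in IL-2 cells, and 7.17 and 7.90 in naive cells. Its naive arrays lay 0.73 apart, the widest gap of that group among the 25. Its rise over naive cells was 0.79 ± 0.20 in IL-12 cells (1.73-fold, limma adjusted p = 0.00919, lost without the second IL-12 array at 0.0533) and 0.78 ± 0.20 in IL-2 cells (1.71-fold, limma adjusted p = 0.0137, lost without either IL-2 array at 0.0766 and 0.0562). Slc38a10 and Slc7a10 passed no test.

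Over the 25 genes, 6 had both IL-12 arrays above both IL-2 arrays and those above both naive arrays: Slc7a5, Slc3a2, Slc7a6, Slc38a2, Slc1a4 and Slc43a3. That order was found in 17.0% of all tested genes. The reverse order was found in 4, Slc6a19, Slc43a2, Slc38a6 and Slc38a7, and in 15.0% of all tested genes. By family, the calls for IL-12 against IL-2 were 2 higher of the 5 tested Slc7 genes, 1 higher of 1 in Slc3, 1 higher of 2 in Slc1, 1 higher and 1 lower of 6 in Slc38, 1 higher and 1 lower of 3 in Slc43, 2 lower of 6 in Slc6 and 0 of 2 in Slc36. Over all tested genes 9.82% were higher and 11.0% lower in this comparison. With 6 or fewer tested genes per family, the counts do not describe a trait of a family.

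The 37 transporter genes left untested had a median level of 6.08. Of these, 32 were below the threshold on all 6 arrays and 5 above it on 1 array: Slc7a3, Slc7a8, Slc1a7, Slc3a1 and Slc6a20a. Slc3a1, the heavy chain of the cystine carrier of the kidney, read 6.31 and 6.56 in IL-12 cells, 6.40 and 6.51 in IL-2 cells, and 7.34 and 6.60 in naive cells, so that 1 naive array stood above the rest. The 2 opposite-strand genes passed no test: Slc7a6os lay between 8.81 and 9.17 on all 6 arrays, with limma adjusted p between 0.242 and 0.739, and Slc6a19os lay between 6.16 and 6.58, too dim to test. Slc6a19os read 6.45 and 6.16 in IL-12 cells, 6.30 and 6.21 in IL-2 cells, and 6.58 and 6.33 in naive cells.

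Enzymes that use the imported amino acids were compared as lists. Of 18 tested aminoacyl-tRNA synthetases, which join amino acids to their tRNAs, 13 were higher in IL-12 than in IL-2 cells (9.82% of all tested genes) and 0 lower, with a median log2 difference of 0.49, beside 0.02 over all tested genes, and 17 were higher (31.2% of all tested genes) and 0 lower in IL-12 than in naive cells. IL-12 minus IL-2 was 0.88 ± 0.12 for Cars (limma adjusted p = 0.00173), 0.79 ± 0.13 for Mars1 (0.00412), 0.75 ± 0.13 for Iars (0.00491) and 0.75 ± 0.13 for Yars (0.00523), and without the second IL-2 array the calls of Mars1 (0.0554), Iars and Yars (both 0.0597) were lost. Of 16 tested genes of the amino acid starvation response and of amino acid synthesis, 9 were higher and 0 lower in IL-2 than in naive cells. In that comparison 25.8% of all tested genes were higher and 19.9% lower. Between IL-12 and IL-2 cells, 7 of the 16 were higher and 1 lower in IL-12 cells (median 0.29), where 9.82% and 11.0% of all tested genes were. Shmt2, a mitochondrial enzyme of serine and glycine metabolism, rose by 0.96 ± 0.13 (limma adjusted p = 0.00119), Atf4, the transcription factor of that response, by 0.50 ± 0.12 (0.0219) and Asns, asparagine synthetase, by 0.97 ± 0.24 (0.0232). Trib3, a pseudokinase that Atf4 induces, fell by 0.73 ± 0.13 (0.00494). Its levels were 7.42 and 7.32 in IL-12 cells, 8.06 and 8.13 in IL-2 cells, and 7.38 and 7.06 in naive cells. Asns had 10.84 and 10.23 in IL-12 cells, 9.91 and 9.23 in IL-2 cells, and 6.29 and 6.35 in naive cells. Without the second IL-2 array the calls of Atf4 (0.200), Asns (0.170) and Trib3 (0.0572) were lost. Without the first IL-12 array those of Atf4 (0.0683) and Asns (0.133) were lost, and without the second that of Atf4 (0.142).

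Among 10 tested genes of glutamine, arginine and branched-chain amino acid use, 8 were higher and 0 lower in IL-2 than in naive cells. In that comparison 25.8% of all tested genes were higher and 19.9% lower. Between IL-12 and IL-2 cells, 3 of the 10 were higher in IL-12 cells, where 9.82% of all tested genes were, and 0 lower (median 0.28). Bcat1, the cytosolic transaminase of leucine, isoleucine and valine, rose by 1.18 ± 0.19 (limma adjusted p = 0.00345), Gpt2, a mitochondrial transaminase of alanine, by 0.90 ± 0.10 (0.000657) and Got1, a transaminase of aspartate, by 0.48 ± 0.13 (0.0271), the last lost without any 1 of the 4 primed arrays (0.107 to 0.177). Bcat1 had 9.61 and 9.77 in IL-12 cells, 8.68 and 8.34 in IL-2 cells, and 7.33 and 6.77 in naive cells, the same order as Slc7a5. The 26 tested genes of amino acid sensing upstream of mTORC1 held 1 that was higher and 6 that were lower in IL-12 than in IL-2 cells (median -0.04), where 11.0% of all tested genes were lower. Sesn1, a sestrin that holds mTORC1 back when leucine is low, fell by 1.13 ± 0.12 (limma adjusted p = 0.000351), with 9.32 and 9.56 in IL-12 cells, 10.5 and 10.6 in IL-2 cells, and 11.3 on both naive arrays. Sesn3, another sestrin, fell by 0.66 ± 0.12 (0.00644) and Flcn, folliculin, by 0.51 ± 0.10 (0.00725). Lamtor4, a subunit of the lysosomal anchor of mTORC1, fell by 0.45 ± 0.10 (0.0163). Sesn2, a sestrin counted on the starvation response list, had IL-12 minus IL-2 at -0.27 and did not pass (0.0983). Against naive cells Sesn2 rose by 0.85 in IL-12 cells (0.000147) and by 1.12 in IL-2 cells (4.6e-05). The call of Sesn3 was lost without the second IL-2 array (0.0676) or the second IL-12 array (0.0582), that of Flcn without any 1 of the 4 primed arrays (0.0515 to 0.0706), and that of Lamtor4 without any 1 of these but the first IL-12 array (0.113 to 0.136). Of 11 tested amino acid and peptide carriers of other families 0 were higher and 1 was lower, a share near the 11.0% of all tested genes. This was Ctns, the lysosomal cystine exporter (-0.69 ± 0.13, limma adjusted p = 0.00789), whose call was lost without the first IL-2 array (0.0768) or the second IL-12 array (0.0588).

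**Figure D4:**
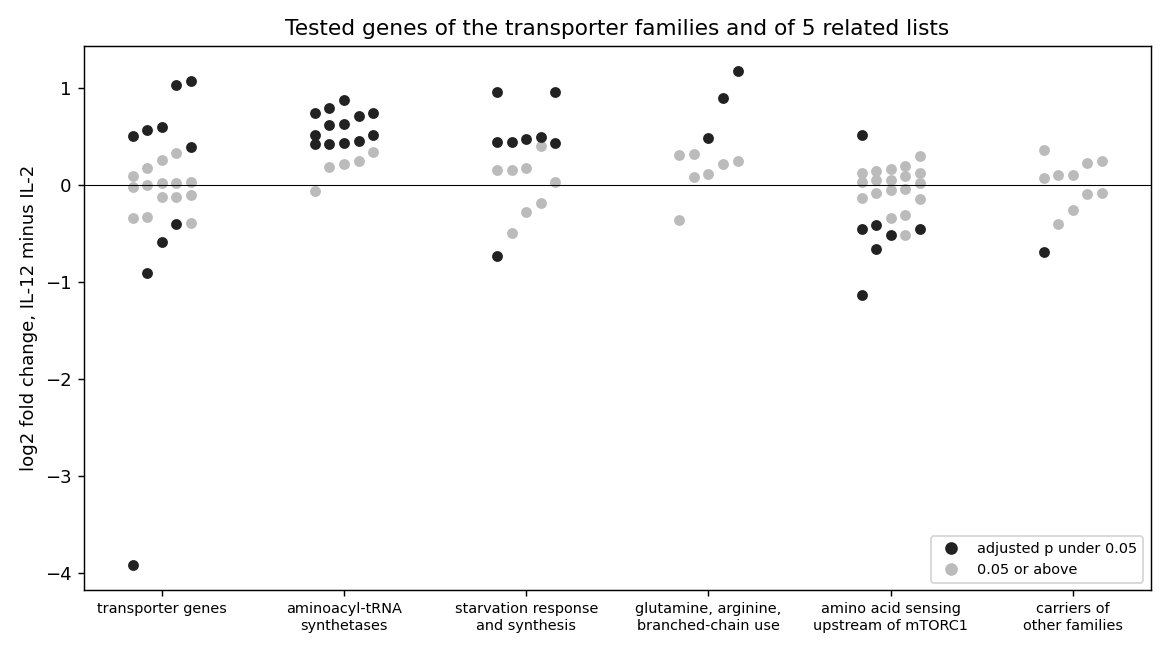
Log2 difference IL-12 minus IL-2 of each tested gene (1 point per gene) for the transporter families and 5 related lists. Dark points have a limma adjusted p under 0.05, and a line marks 0. The aminoacyl-tRNA synthetases have a median of 0.49, against 0.02 for the 25 transporters, which spread to both sides of 0.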

How the data were processed

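Total RNA of 6 samples was hybridised to Affymetrix arrays, 1 array per sample. The authors deposited 1 table of RMA-processed log2 values, per the submitters' processing notes, with 35556 probe sets; RMA's version, settings and a genome build are not given in the sources used here. RMA aligns the arrays' distributions and would hide a shift shared by most genes. Values ran from 2.51 to 14.72. Names came from the array's platform annotation: 21789 had 1 symbol, 1621 several and 12146 none, and only the first were used. For each gene the brightest probe set on average stood for it, and 60 of the 62 transporter genes had only 1.

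One limma model (version 3.58.1, R 4.3.3) covered all 6 arrays (lmFit, eBayes, 1 mean per group, 3 residual and 5.62 prior degrees of freedom), two-sided, with Benjamini-Hochberg adjustment over 11147 tested genes and a threshold of 0.05. The fit was tested on simulated data. Every gene of the families could be named; values on each array were given for those called with at least a 2-fold difference and for a fixed set, and up to 4 genes of each further list by their adjusted p. Slc7a2, Slc7a3, Sesn2 and the genes near the brightness threshold, and the arrays' values of Asns, Bcat1, Sesn1, Trib3, Foxp3, Cd40lg, Lyz2 and Itgam, were added after their values were seen. The members and lists were chosen with earlier results of these data known. Promoter windows came from RefSeq (GRCm38.p6) and were searched in Python 3.11.15. Each replicate, filter, scaling and probe-set choice was varied. Only 2 arrays per group limit the precision. Replicate numbers in the titles are not said to mark a shared mouse, batch or day, so no block was used. The deviations of same-numbered arrays correlated at 0.153 for IL-12 and IL-2, 0.0152 for IL-2 and naive and -0.0223 for IL-12 and naive. These values do not settle whether the arrays were paired.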

Additional observations from a re-analysis of the deposited data

Results flagged for a closer look

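Of the 10 transporter genes called for IL-12 against IL-2 cells, 2 had the means of the primed groups on opposite sides of the naive mean. They were picked for that pattern. The comparison of IL-12 with IL-2 cells tests only whether the primed groups differ, not whether each left the naive level. For Slc38a9, the lysosomal arginine sensor, IL-12 minus IL-2 was -0.90 (limma adjusted p = 0.000519), with IL-12 minus naive at -0.49 and IL-2 minus naive at 0.41, and both arrays of each primed group showed its direction. Its second probe set did not show opposite directions. For Slc7a1, the arginine and lysine carrier, IL-12 minus IL-2 was 0.61 (limma adjusted p = 0.00813), with IL-12 minus naive at 0.33 and IL-2 minus naive at -0.28, the last of which did not pass its own test. Its call for IL-12 against naive cells was lost with quantile normalisation (limma adjusted p = 0.085) and with no brightness filter (0.0518). That call was also lost without any 1 array but the second naive one.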

How the results depend on the processing

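Across 16 other settings the number of transporter genes called for IL-12 against IL-2, 10 as reported, was 4 to 14 when 1 array was left out, and 14 with only the 2 groups compared. For IL-2 against naive, 11 as reported, it was 6 to 11 with 1 array left out and 7 with the brightness threshold at the 75th percentile, where only 14 genes were tested. For IL-12 against naive, 18 as reported, it was 13 to 17 and 11 in the same settings. With the replicate number as a block, the counts were 10, 11 and 17, and of the named genes the block ended 1 call, that of Slc38a7 for IL-12 against naive (adjusted p = 0.0509). Slc38a9, IL-2 minus naive, reversed to -0.25 on its other probe set, an alternative chosen after seeing the data; the cause was not tested. Some calls for IL-12 against IL-2 were gained. Slc7a6 and Slc36a1 passed with the brightness threshold at the 75th percentile (limma adjusted p = 0.0435 and 0.0449). With only the 2 groups compared both passed (0.0252 and 0.0282), as did Slc43a1 (0.0296) and Slc38a6 (0.0275). Centring each array on its median moved the median of all genes for IL-12 minus naive to 0.16, against 0.04, and for IL-2 minus naive to 0.11, against 0.01. Signals near 6 sit low on the array, so differences there are limited by background.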
